A study of Mus musculus with 6 samples.

Results

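The genes described here belong to the integrated stress response (ISR) and to amino acid supply. They are 32 named genes: transcription factors and feedback regulators of the response, amino acid transporters, enzymes that make serine, asparagine, proline and one-carbon units, and tRNA synthetases. All 32 were found by symbol among the 21825 genes of the deposited count table. The libraries came from group 2 innate lymphoid cells (ILC2s), tissue lymphocytes that make type 2 cytokines, sorted from lungs of BALB/c mice aged 6 weeks. The mice had received 3 intraperitoneal doses of recombinant mouse IL-33, 1 µg each, so the cells of both groups had been activated in vivo. Both groups were then cultured for 48 h with 10 ng/mL IL-2 and 10 ng/mL IL-7, the PBS group with vehicle and the TNFa group with 40 ng/mL recombinant mouse TNFa. There were 3 libraries per group, labelled replicates 1 to 3 with PBS and 4 to 6 with TNFa. The labels do not say whether they came from separate mice or cultures, so the p-values reflect only how these libraries vary, which may be technical.

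In the ISR, several kinases sense amino acid shortage, endoplasmic reticulum stress, double-stranded RNA or haem deficiency and phosphorylate the translation factor eIF2. General translation then slows, while the mRNA of the transcription factor ATF4 is translated more. ATF4 raises genes that import and make amino acids and charge tRNAs, together with feedback genes that restore translation or, when stress lasts, promote death. Activated lymphocytes also use this programme to supply the amino acids that growth requires, and much of the control of ATF4 acts on its translation, which mRNA counts do not measure.

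The libraries held 25089415 to 32487004 counts. TNFa replicate 5 stood apart: its mean correlation with the other libraries was 0.949, against 0.964 to 0.967, and ribosomal protein genes took 4.18% of its counts, against 2.60% to 2.92%. The 15 ILC2 markers were all measured and their summed level was 11733 to 13096 CPM (counts relative to library size, scaled between libraries by the TMM method) with PBS and 12445 to 13396 with TNFa, led by Il5 and Il2ra. Of these markers 1, the costimulatory receptor Icos, named after its values were seen, passed edgeR's test over all genes: it was at 939.6, 809 and 914 CPM with PBS and at 525, 480.3 and 545 with TNFa (log2 fold change -0.78 ± 0.10, SE; adjusted p = 0.036). Its adjusted p was 0.064 with no filter on low counts and 0.0061 to 0.37 with each library left out, the lowest without TNFa replicate 5. The 8 mast cell markers summed to 1299 to 1436 and 1351 to 1538 CPM, led by Tpsab1 and Cma1. The 8 T cell markers, led by Cd3g and Foxp3, summed to 124 to 143 CPM with PBS and 106 to 109 with TNFa. The B cell markers (4 of 5 listed, led by Cd79b and Ms4a1; Cd79a was at 0 in some libraries) summed to 20.2 to 20.6 and 13.8 to 16.5 CPM, the 9 myeloid markers (led by Chil3 and Ly6c2) to 53.0 to 113 and 38.5 to 69.3, and the structural markers (7 of 8, led by Pecam1 and Scgb1a1) to 119 to 153 and 143 to 198. Within the structural sum, Scgb1a1 was at 0.0341, 6.09 and 8.07 CPM with PBS. In TNFa replicates 4, 5 and 6 it was at 81.0, 0.187 and 46.1 CPM. The part of cells other than ILC2s in the values below was not tested. In bulk RNA, fewer cells of a type and less RNA per cell cannot be told apart.

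A sequence feature is shared by some of these genes. ATF4, paired with C/EBP proteins, binds a composite element (CARE, or amino acid response element) whose core was searched here as TGATGNAA on both strands, from 250 bases before to 50 bases after each RefSeq transcript start (GRCm38.p6, the mm10 build). Of the 32 members 28 had a promoter in the RefSeq table, and 8 of those (28.6%) held the core, against 4.51% of all 27025 genes with a promoter and 3.97% of all 32851 promoters. The 8 were Trib3 and Chac1 among the regulators, Slc7a11 and Slc1a4 among the transporters, Asns and Pycr1 among the enzymes and the synthetases Aars and Gars. The members were listed in part as ATF4 targets, so a share above that of all genes follows from the choice. For comparison, the E-box CACGTG, which MYC and USF proteins bind, lay in 2 of the 28 (Aars and Aldh18a1, 7.1%) and in 8.09% of all genes. The cores below are shown for members of each role, as the kind of site that ATF4 binds. Each line is 30 bases on the gene's own strand, with the core in capitals; TTNCATCA is the core read on the other strand.
Trib3, chr2:152344028-152344057, minus strand, 15 bases into the transcript: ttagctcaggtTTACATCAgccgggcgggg
Chac1, chr2:119351038-119351067, plus strand, core at -193: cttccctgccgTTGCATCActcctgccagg
Slc7a11, chr3:50443661-50443690, minus strand, core at -66: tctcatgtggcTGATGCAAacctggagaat
Slc7a11, chr3:50443642-50443671, minus strand, core at -47: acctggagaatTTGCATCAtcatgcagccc
Asns, chr6:7693214-7693243, minus strand, core at -23: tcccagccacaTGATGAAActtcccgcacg
Gars, chr6:55037960-55037989, plus strand, core at -30: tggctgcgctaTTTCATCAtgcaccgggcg
Positions count from the transcript start to the first base of the core. Slc7a11, which encodes the cystine importer xCT, carried a pair of cores in opposite orientation within its proximal promoter. A match is a description of letters, not evidence that ATF4 was bound in these cells.

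With PBS, the machinery for amino acid uptake and serine synthesis was abundant. Levels are compared between genes as TPM, a transcript abundance that divides by exon length. The highest was Slc3a2, the heavy chain CD98 that carries several transporters to the membrane, at 588 ± 23.4 TPM (SD, n = 3), above 98.2% of the 12472 protein-coding genes tested. Its light chains Slc7a8 (LAT2) and Slc7a5 (LAT1), which exchange large neutral amino acids, followed at 545 ± 30.4 and 431 ± 55.3 TPM. Shmt2, Phgdh and Gars stood next at 422 ± 11.7, 408 ± 8.81 and 398 ± 16.1 TPM, and Atf4 itself at 378 ± 15.9. Over the PBS libraries the ranges of Slc3a2 and Slc7a8 overlapped, and so did those of Slc7a5, Shmt2, Phgdh, Gars and Atf4 from neighbour to neighbour, so the order within each of these sets is not firm. The stress-end genes were far lower: Trib3 at 35.5 ± 0.347, Chac1 at 28.3 ± 3.58, Ddit3 (CHOP) at 25.8 ± 4.83 and Atf5 at 3.85 ± 0.294 TPM. At the bottom lay Slc7a11 at 1.8 ± 0.113 TPM, above 18.9% of protein-coding genes. The members thus ran from near the top of the transcriptome to its lower end, and the transporters alone covered that range.

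**Figure D1:**
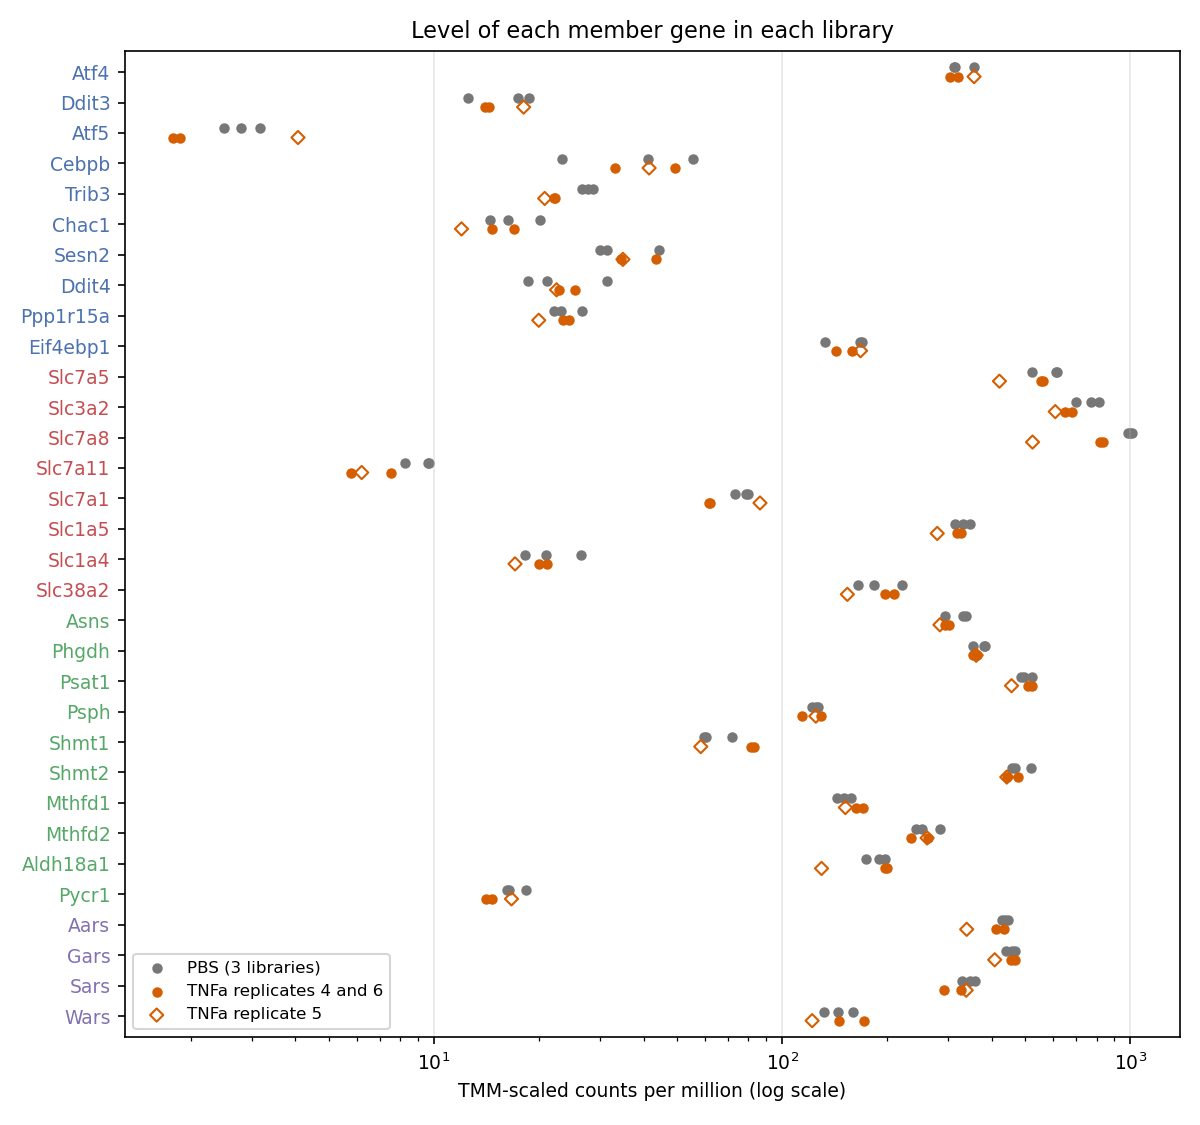
Level of each of the 32 genes in each library, in TMM-scaled CPM on a log axis, not divided by gene length; grey points are the 3 PBS libraries, filled orange points TNFa replicates 4 and 6, open diamonds TNFa replicate 5. Gene names are blue for regulators, red for transporters, green for enzymes and purple for tRNA synthetases. For most genes the groups lie on top of each other, while Slc7a8 ran from 984 to 1010 with PBS and from 524 to 834 with TNFa.

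The comparison asked whether TNFa changed this programme. None of the 32 genes passed, higher or lower, when edgeR's quasi-likelihood p-values were adjusted over all 15719 tested genes by Benjamini-Hochberg (threshold 0.05), where 0.102% of genes passed. DESeq2 and limma voom with library quality weights also called 0 members, against 1.39% and 0.496% of genes. At an unadjusted p under 0.05, edgeR gave 3 members, all lower with TNFa (Slc7a8, Slc3a2 and Trib3), where 8.31% of genes reached that level and 4.63% did so lower. DESeq2 gave 4 lower (9.47% of genes), and limma voom 5 lower and 1 higher (13.0%). Without TNFa replicate 5 edgeR again called 0 members, against 0.406% of genes, and gave 3 lower and 1 higher at an unadjusted p under 0.05, against 10.8%. The groups did not overlap for 4 members, those 3 and Slc7a11, all lower. That is 12.5% of the members, where 15.2% of genes did not overlap, 8.35% lower and 6.85% higher, so the share as such is near that of all genes. The median log2 fold change of the members was -0.09, against 0.00 over all genes, and 27 members had a fitted change below 0. That count was 24 with RLE and 21 with upper-quartile scaling, so the direction of the members nearest to 0 is not firm.

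The absence of calls came with fairly narrow intervals. The 95% interval of the change lay within 2-fold in either direction for 30 of the 32 genes and within 1.5-fold for 25. The exceptions at 2-fold were the least abundant members, Atf5 (0.47-fold to 1.76-fold) and Slc7a11 (0.49-fold to 1.02-fold). All 10 enzymes and all 4 tRNA synthetases were bounded within 1.5-fold, as were 6 of 10 regulators and 5 of 8 transporters. These are intervals of single genes from 3 libraries a group, and they do not show that the genes did not differ. In the trial of the scripts described below, the test also missed most differences of this size. There it called 6.5% of the genes altered 1.5-fold and 41.5% of those altered 2-fold. The altered genes were drawn at random from all 15719 tested genes, of which 9284 had an interval within 2-fold in the data. The trial thus does not give the share that would be missed among the members.

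**Figure D2:**
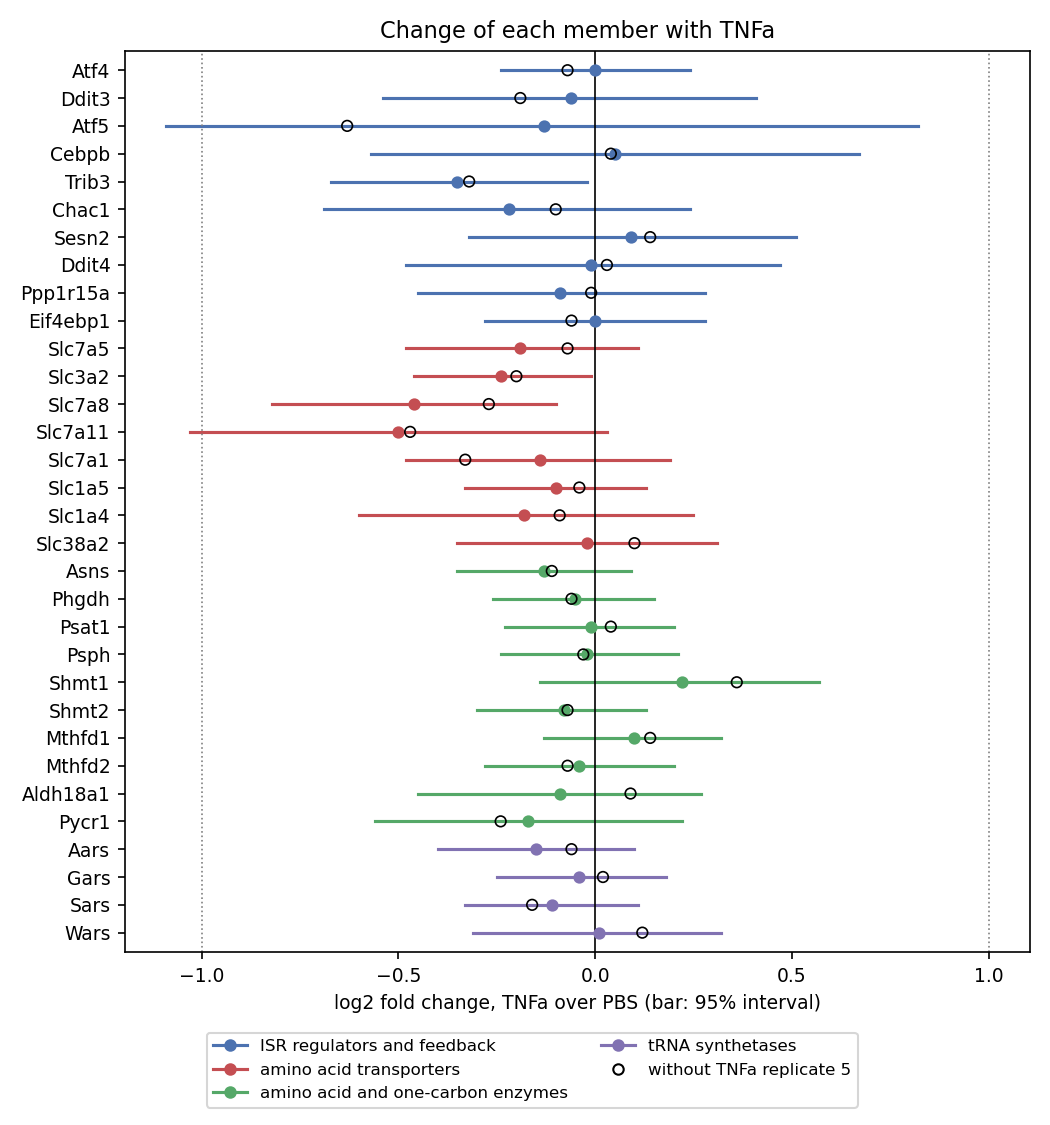
Log2 fold change of each gene, TNFa over PBS, from edgeR's fit on 6 libraries (filled points; bars are 95% intervals) and without TNFa replicate 5 (open circles); dotted lines mark 2-fold. The bars of Slc7a8, Slc3a2 and Trib3 lie below 0 before adjustment for multiple testing, and the open circle of Slc7a8 sits closer to 0, at -0.27 against -0.46.

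Among the regulators, Atf4 was the most abundant and its means were alike in the 2 groups. It stood at 356, 311 and 313 CPM in PBS replicates 1 to 3 and at 321, 356 and 304 in TNFa replicates 4 to 6, a fold change of 1.00 (95% interval 0.85 to 1.18, adjusted p = 1.0). The groups overlapped throughout. Its partner gene Ddit3, which encodes the pro-death factor CHOP, was at 16.2 ± 3.34 and 15.5 ± 2.26 CPM (adjusted p = 0.96). Ppp1r15a (GADD34), which directs the phosphatase that removes the phosphate from eIF2, was at 24 ± 2.35 and 22.6 ± 2.29 CPM (adjusted p = 0.92). Neither the factor that starts the programme nor the gene that ends it differed by more than its spread.

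Trib3, a pseudokinase that binds ATF4 and CHOP and dampens them, was the regulator whose groups were apart. It was at 28.6, 27.7 and 26.7 CPM with PBS and at 22.1, 20.8 and 22.3 with TNFa. All 3 TNFa libraries were below all 3 PBS libraries. The spread was 3.5% of the mean with PBS and 3.83% with TNFa, about the 3.72% that counting alone gives. The fold change was 0.79 (0.63 to 0.98), and the log2 fold change was -0.35 ± 0.15 (SE, edgeR adjusted p = 0.56). Without TNFa replicate 5 it was -0.32 (adjusted p = 0.50). Its promoter core is the first of those shown above.

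The other regulators overlapped between groups. Chac1, which breaks down glutathione, was at 20.2, 16.3 and 14.5 CPM with PBS and 14.7, 12 and 17.0 with TNFa (adjusted p = 0.82). Sesn2 and Ddit4, both inhibitors of the growth kinase complex mTORC1, had log2 fold changes of 0.09 ± 0.19 and -0.01 ± 0.21. Eif4ebp1, the translation repressor 4E-BP1, stood at 157 ± 20.5 and 157 ± 12.5 CPM. Cebpb, a dimer partner of ATF4, varied more between PBS libraries than any other member, from 23.3 to 55.3 CPM, and its TNFa values of 33.2 to 49.1 fell inside that range. Atf5, a related factor, was at 1.78 to 4.07 CPM; its log2 fold change was -0.13 ± 0.43 on all libraries and -0.63 without TNFa replicate 5, where it was highest (adjusted p = 0.96 and 0.66).

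The transporters were the role that lay lowest with TNFa. All 8 had a fitted change below 0 (Slc38a2 went above 0 with upper-quartile scaling, with limma voom, without PBS replicate 3 and without TNFa replicate 5), with a median of -0.18. Their summed level was 2915, 3007 and 2993 CPM in the PBS libraries and 2694, 2098 and 2635 in the TNFa libraries. None passed over all genes. Most of the sum comes from the CD98 heavy chain and its LAT1 and LAT2 partners.

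Slc7a8 (mm10, chromosome 14, 54722209 to 54781946, minus strand) had the smallest p of the 32. It was at 984, 1001 and 1010 CPM with PBS, a spread of 1.34% around the mean, and at 834, 524 and 821 CPM with TNFa. Every TNFa library was below every PBS library, and TNFa replicate 5 was far below the other two. The fold change was 0.73 (0.57 to 0.93; log2 fold change -0.46 ± 0.16, adjusted p = 0.46), and -0.27 ± 0.08 without TNFa replicate 5 (adjusted p = 0.18). DESeq2 without that library, an analysis chosen after seeing the data, called it lower at -0.27 ± 0.07 (adjusted p = 0.016), the only member called in any analysis run, where 2.46% of genes were called. Limma voom without that library called 0 members, against 0.722% of genes, and gave Slc7a8 an adjusted p of 0.052.

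Slc3a2 (chromosome 19, 8706882 to 8723369, minus strand) was at 814, 772 and 697 CPM with PBS and at 680, 609 and 648 with TNFa. The groups were apart, though PBS replicate 3 and TNFa replicate 4 nearly met. The fold change was 0.85 (0.73 to 0.99; adjusted p = 0.56). Slc7a5, the other light chain, overlapped: it was at 523, 613 and 615 CPM with PBS and at 563, 421 and 554 with TNFa (fold change 0.88, 0.72 to 1.08; adjusted p = 0.75). Slc7a8, Slc7a5 and Slc3a2 were each lowest in TNFa replicate 5.

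Slc7a11 was measured on 166 counts or more per library. It was at 9.64, 9.66 and 8.26 CPM with PBS and at 7.51, 6.20 and 5.78 with TNFa, again without overlap (log2 fold change -0.50 ± 0.24, adjusted p = 0.63). It overlaps 5 annotated noncoding genes or pseudogenes, and strand use in the counting is not known. Among all 4 members whose groups were apart, the change stayed below 0 with each alternative tried. With a library left out, this follows from the groups being apart and is no further support.

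**Figure D3:**
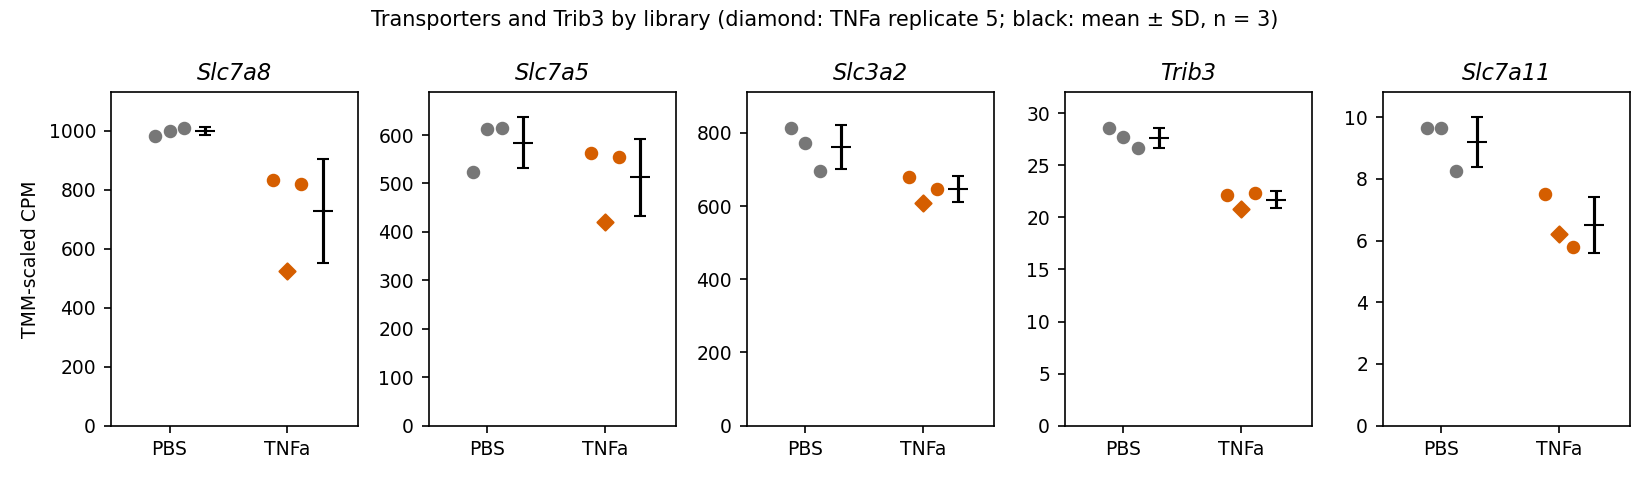
CPM by library for the 4 genes whose groups did not overlap and for Slc7a5, each axis starting at 0; grey, PBS; orange, TNFa; diamonds, TNFa replicate 5; black, mean ± SD over 3 libraries. Slc7a8 in TNFa replicate 5 is at 524, while the other TNFa libraries are at 834 and 821.

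The remaining transporters carry glutamine, small neutral and cationic amino acids. Slc1a5 (ASCT2) was at 330.0 ± 16.9 CPM with PBS and 308 ± 24.8 with TNFa, and Slc38a2 (SNAT2), the adaptive importer of small neutral amino acids, at 189.7 ± 28.5 and 187 ± 29.2. Slc1a4 (ASCT1) was at 21.9 ± 4.18 and 19.4 ± 2.10 CPM. None of these differed beyond its spread. Slc7a1 (CAT1), the main importer of arginine and lysine, was at 79.9, 78.9 and 73.2 CPM with PBS and at 61.5, 86.4 and 62.0 with TNFa. Here TNFa replicate 5 was the highest library while the other TNFa libraries were the lowest: the log2 fold change was -0.14 on all libraries and -0.33 without replicate 5 (adjusted p = 0.84 and 0.28).

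The enzymes varied little: their median spread was 6.46% of the mean with PBS and 6.42% with TNFa. The serine pathway runs from Phgdh through Psat1 to Psph, and its levels with PBS and TNFa were 372 ± 15.5 and 359 ± 5.81 CPM for Phgdh, 501 ± 17.8 and 496 ± 35.3 for Psat1, and 124 ± 2.53 and 123 ± 8.14 for Psph (adjusted p = 0.92, 0.98 and 0.98). Each upper and lower bound of the change lay between 0.84-fold and 1.16-fold. Asns, which makes asparagine and is a classic ATF4 target, was at 331, 294 and 337 CPM with PBS and at 294, 284 and 302 with TNFa (fold change 0.91, 0.78 to 1.07; adjusted p = 0.77). The groups overlapped between 294 and 302 CPM. In the proline branch, Aldh18a1 was at 187 ± 11.5 and 176 ± 39.9 CPM and Pycr1 at 17.0 ± 1.24 and 15.2 ± 1.35, with overlap in both.

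The one-carbon enzymes form mitochondrial and cytosolic arms. Shmt2 and Mthfd2 work in mitochondria: Shmt2 was at 519, 467 and 458 CPM with PBS and at 476, 442 and 444 with TNFa (adjusted p = 0.86), and Mthfd2 at 260 ± 22.5 and 252 ± 15.7. Shmt1 and Mthfd1 work in the cytosol and were among the 5 members with a fitted change above 0. Shmt1 was at 60.3, 59.6 and 72 CPM with PBS and at 81.6, 58.4 and 82.8 with TNFa. Its TNFa replicates 4 and 6 exceeded all PBS libraries and replicate 5 lay below them all, so the log2 fold change of 0.22 ± 0.16 became 0.36 without replicate 5 (adjusted p = 0.77 and 0.27). Mthfd1 was at 151 ± 6.90 and 162 ± 8.97 CPM (log2 fold change 0.10 ± 0.10, adjusted p = 0.84).

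The tRNA synthetases, which join alanine, glycine, serine and tryptophan to their tRNAs, were abundant and overlapped between groups. Gars, the highest per length, was at 466, 441 and 458 CPM with PBS and at 455, 408 and 466 with TNFa (fold change 0.97, 0.84 to 1.13; adjusted p = 0.95). Aars was at 438 ± 9.51 and 394 ± 49.2 CPM, with TNFa replicate 5 at 339 and the others at 410 and 433. Sars was at 344 ± 14.1 and 319 ± 23.9 CPM. Wars, which interferons also raise in many cells, was at 146 ± 13.8 and 147 ± 25.1 CPM and was highest in TNFa replicate 6, at 172. No synthetase had an adjusted p below 0.77.

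TNFa replicate 5 was often the library that differed. It was the lowest of the 6 libraries for 17 of the 32 members (53.1%), against 29.3% of all tested genes, and the highest for 2 (6.25%), against 26.4%. The median deviation from the PBS mean in TNFa replicates 4, 5 and 6 was -0.11, -0.33 and -0.17 on the log2 scale for the transporters. For the synthetases it was -0.05, -0.21 and 0.01. For the enzymes it was 0.02, -0.08 and -0.01, and for the regulators -0.03, 0.06 and -0.11, no wider than the PBS libraries, which ran from -0.15 to 0.13. The deviations are taken from the mean of the same PBS libraries, which draws the PBS medians towards 0 and narrows their range. Of the 4 roles, the transporters were the one whose median was below the PBS range in all 3 TNFa libraries. The 8 members with a CARE core, of which 2 are transporters, were also below it, at -0.16, -0.36 and -0.10 against -0.05 to 0.06 with PBS. All 8 had a fitted change below 0, with a median of -0.17 (Gars went above 0 with limma voom and without TNFa replicate 5, where the median was -0.11). The 20 members with a promoter and no core within the bases searched had 16 below 0 and a median of -0.05. By library they were at -0.02, -0.03 and -0.05, inside their PBS range of -0.07 to 0.05. A core outside the bases searched would have been missed. The difference between these sets was not tested. Without replicate 5 the median over the members was -0.06.

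**Figure D4:**
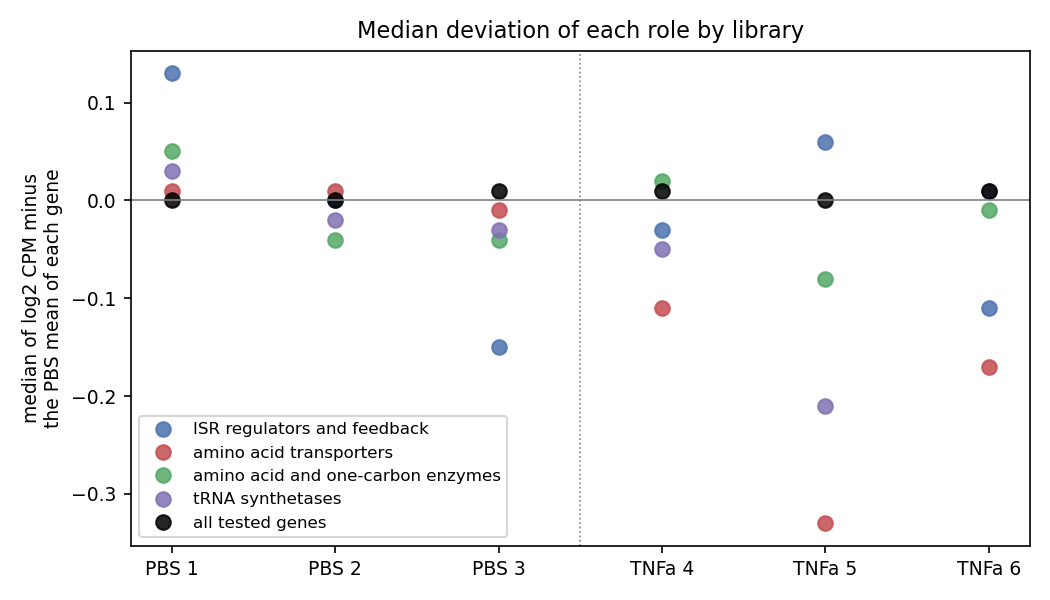
Median over the genes of each role of log2 CPM minus the gene's PBS mean, by library; black points are the 15076 of 15719 tested genes with a value above 0 in every library. The transporters (red) are at -0.11, -0.33 and -0.17 in TNFa replicates 4, 5 and 6, and within 0.01 of 0 in the PBS libraries. Values in the PBS libraries are drawn towards 0 because their own mean is the reference.

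The higher ribosomal protein share of replicate 5 is given above, and its part in these medians was not tested. The spread between libraries, not counting, limited the test: the median spread of a member within the PBS group was 7.81% of its mean, where counting alone gives 1.48%. Of the 32 genes 17 overlap another annotated gene on either strand, which the counting may have shared out (Ddit3 with Mars, Atf5 with Nup62 and Il4i1, Shmt2 with Ndufa4l2, Wars with Wdr25).

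The wider pathway was read from 8 lists of related genes, 141 of which were tested. None of the 141 passed in edgeR's test over all genes. At an unadjusted p under 0.05, where all 15719 tested genes gave 578 higher and 728 lower, the 141 gave 14 higher and 4 lower. DESeq2 called 4 of them, 2 higher (Bcat1 and Slc7a2) and 2 lower (Tfeb and Castor1), where it called 1.39% of all genes, and limma voom with quality weights called 0. Without TNFa replicate 5, DESeq2 called 5 (2.46% of all genes): Dars and Yars2 were added, both higher (adjusted p = 0.0064 and 0.047), and Slc7a2 was not called. Limma voom without that library called Bcat1, higher (adjusted p = 0.040; 0.722% of all genes). Their median log2 fold change was 0.01. The groups were apart for 16 higher and 10 lower, or 18.4% of them, beside 15.2% of all genes.

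None of 17 genes for the eIF2 kinases, eIF2 and its exchange factor eIF2B passed. The amino acid sensing kinase Eif2ak4 (GCN2) was at 17.2 ± 1.97 CPM with PBS and 13.6 ± 6.26 with TNFa, and Eif2ak3 (PERK), the endoplasmic reticulum kinase, at 35.2 ± 3.65 and 30.1 ± 11.3. Eif2ak1 (HRI), which senses haem, was at 74.8 ± 11.6 and 65.8 ± 16.5 CPM, and Eif2ak2 (PKR), which senses double-stranded RNA, at 20.8 ± 3.42 and 23.3 ± 5.19. All 4 kinases were lowest in TNFa replicate 5. Without it the log2 fold changes of Eif2ak1, Eif2ak3 and Eif2ak4 went from -0.19, -0.22 and -0.34 to 0.00, 0.06 and -0.03, and that of Eif2ak2 from 0.17 to 0.33 (adjusted p = 0.58). The smallest p in the list was that of Eif2b3, an eIF2B subunit, at 48.6 ± 4.04 and 66.7 ± 7.07 CPM (log2 fold change 0.46 ± 0.13, adjusted p = 0.36).

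Of 15 other ATF4 target genes none passed. They had 9 fitted changes below 0 and a median of -0.06, which became 0.07 without TNFa replicate 5, the lowest library for 9 of them (60.0%, against 29.3% of all tested genes). The genes with the smallest p lay the other way, higher with TNFa and apart between groups. Nupr1, a small stress-induced chromatin protein, was at 49.2, 50.2 and 48.1 CPM with PBS and at 58.9, 97.4 and 65.3 with TNFa (adjusted p = 0.39). Atf3, a stress factor downstream of ATF4 that other signals also induce, was at 6.85, 4.18 and 4.12 CPM with PBS and at 7.51, 8.93 and 13.9 with TNFa (log2 fold change 1.00 ± 0.33, adjusted p = 0.42). Trib3, described above, was below the PBS range in each TNFa library.

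The 19 other cytosolic synthetases and their scaffold proteins had 15 fitted changes above 0 and a median of 0.11, while the 4 members of the same family had a median of -0.07. Eef1e1, a scaffold protein of the synthetase complex, was at 71.4 ± 7.16 and 95.5 ± 9.32 CPM (adjusted p = 0.39), and Dars, which charges aspartate, at 120.1 ± 5.94 and 149 ± 19.0 (adjusted p = 0.52). Of the 17 mitochondrial synthetases Yars2 (35.0 ± 2.15 and 47.4 ± 2.57 CPM, adjusted p = 0.38) and Fars2 (27.4 ± 3.88 and 36.8 ± 3.18, adjusted p = 0.50) came closest. Lars2, named after its values were seen, was at 2071 to 3128 CPM in 5 libraries and at 17251 in TNFa replicate 5. Without Lars2 the other 16 summed to 439 to 484 CPM with PBS and 417 to 531 with TNFa.

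Other transporters gave changes in both directions. Slc7a2 (CAT2), a second carrier of arginine, was at 1.25 ± 0.668 CPM with PBS and 4.32 ± 0.784 with TNFa (log2 fold change 1.8 ± 0.47, adjusted p = 0.30; DESeq2, adjusted p = 0.025). Slc43a2 (LAT4), which like the LAT1 and LAT2 carriers moves large neutral amino acids, was at 65.7, 79.9 and 63.3 CPM with PBS and at 57.9, 39.7 and 51.7 with TNFa (adjusted p = 0.43). None of the 12 tested passed in edgeR. Among 19 further one-carbon, methionine and cysteine enzymes, Aldh1l1 stood at 1.49 CPM or less in every library.

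Among 13 enzymes of proline, glutamate and aspartate, Bcat1, which starts the breakdown of branched-chain amino acids in the cytosol, was at 118, 123 and 133 CPM with PBS and at 168, 149 and 169 with TNFa. The groups were apart (log2 fold change 0.38 ± 0.11, adjusted p = 0.35; DESeq2, adjusted p = 0.048).

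The 29 genes of amino acid sensing by mTORC1 had 23 fitted changes below 0 and a median of -0.14. Like the transporters, their median by library was below the PBS range in all 3 TNFa libraries. It was at -0.08, -0.24 and -0.12, against -0.02 to 0.00 with PBS. That PBS range is narrow in part because the deviations are taken from the PBS mean. Tfeb, the transcription factor of lysosome genes that mTORC1 holds in the cytosol, was at 19.2, 19.5 and 14.8 CPM with PBS and at 8.06, 8.19 and 10.1 with TNFa. This was the smallest p among the related genes (log2 fold change -1.02 ± 0.21, adjusted p = 0.17; DESeq2, adjusted p = 0.0011). Castor1, the arginine sensor that restrains mTORC1, was at 88.2, 81.8 and 74.8 CPM with PBS and at 60.7, 58.8 and 60.0 with TNFa (log2 fold change -0.45 ± 0.11, adjusted p = 0.29; DESeq2, adjusted p = 0.041). For both, all TNFa libraries, replicate 5 included, lay close together and below the PBS libraries.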

How the data were processed

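The deposited values are estimated counts per gene, unscaled between libraries; the file's name shows that the authors obtained them with the expectation-maximization method of Partek. The submitters' processing notes list CASAVA 1.8.2, STAR, Partek and mm10 without saying what each did. Which annotation was counted, and whether by strand, is not given in the sources used here. Gene names and coordinates (1-based) matched GENCODE M21, on the same build, for 21201 genes. Exon lengths for TPM are unions of its exons.

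Counts were rounded and tested with edgeR 4.0.16 (R 4.3.3): filterByExpr with a minimum count of 10 and total of 15, TMM scaling and the robust quasi-likelihood test, with Benjamini-Hochberg adjustment over 15719 genes at 0.05. SEs derive from the F statistic. The scripts were tested on simulated data. With 200 of 15719 genes altered, 6.5% of them were called at 1.5-fold, 41.5% at 2-fold and 71% at 4-fold. Of the calls, 4 of 17, 10 of 93 and 11 of 153 were false. With 0 genes altered there were 0 calls. Alternatives used DESeq2 1.42.0, limma 3.58.1, other scalings and filters, and each library left out. All members were named, with the genes past the threshold of each related list or else its 2 smallest p, the eIF2 kinases, and the 2 most abundant markers of each cell type. Some genes that this rule names are not reported here. The members and lists were chosen with earlier results of these data known.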

Additional observations from a re-analysis of the deposited data

How the results depend on the processing

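No member was called in any of the 12 alternatives first listed; of the 2 added after seeing the data, DESeq2 without TNFa replicate 5 called 1 and limma voom without it called 0. Over all genes 16 were called, against 3 with no filter, 25 with a filter at 5 CPM, 218 with DESeq2 and 78 with limma voom, and from 1 to 67 with each library left out, the highest without TNFa replicate 5. Of 383 comparisons of a member with an alternative, 332 kept direction and side of the threshold and 51, in 14 members, changed sign. The cause was not tested. After a change of sign the values furthest from 0 were 0.25 (Ddit4 without PBS replicate 2) and -0.23 (Cebpb without PBS replicate 3). With RLE scaling the log2 fold changes of Atf4, Ddit4 and Eif4ebp1 became 0.01, 0.003 and 0.01, and with DESeq2 the same 0.01, 0.003 and 0.01. With upper-quartile scaling Atf4, Ddit4, Eif4ebp1, Slc38a2, Psat1 and Psph became 0.04, 0.03, 0.03, 0.01, 0.02 and 0.02, and with the filter at 5 CPM Atf4, Ddit4, Eif4ebp1, Psat1 and Psph became 0.02, 0.01, 0.02, 0.004 and 0.005. With limma voom Cebpb became -0.003, Slc38a2 0.09, Psat1 0.03, Aldh18a1 0.05 and Gars 0.01, and with no filter Wars became -1e-06. With each library left out the ranges were -0.07 to 0.07 for Atf4, -0.23 to 0.05 for Ddit3, -0.63 to 0.07 for Atf5, -0.23 to 0.35 for Cebpb, -0.03 to 0.30 for Sesn2, -0.15 to 0.25 for Ddit4, -0.11 to 0.06 for Eif4ebp1, -0.11 to 0.10 for Slc38a2, -0.06 to 0.04 for Psat1, -0.06 to 0.03 for Psph, -0.09 to 0.03 for Mthfd2, -0.19 to 0.09 for Aldh18a1, -0.08 to 0.02 for Gars and -0.12 to 0.12 for Wars. The regulators' median moved to -0.16 without PBS replicate 3, and the other 47 role medians compared stayed within the spread of the TNFa libraries. No paired analysis was possible because the groups share no replicate numbers. Depth limits Atf5, with as few as 47 counts in a library, and Slc7a11.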

Other observations

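Ratios of a pair of genes within a library do not depend on the scaling between libraries. These pairs were chosen after their values were seen, so no test is given. Per length, Slc7a8 (LAT2) stood at 1.39, 1.21 and 1.22 times Slc7a5 (LAT1) in PBS replicates 1 to 3 and at 1.10, 0.921 and 1.10 times in TNFa replicates 4 to 6. The groups did not overlap. Slc7a8 was above Slc7a5 in TNFa replicates 4 and 6 as well, and below it in replicate 5, the library that stood apart. The mitochondrial Shmt2 stood at 10.7, 9.79 and 7.95 times the cytosolic Shmt1 with PBS and at 7.28, 9.46 and 6.71 times with TNFa. Here replicates 4 and 6 lay below the PBS libraries and replicate 5 among them.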
